A study of Mus musculus with 2 samples.

Results

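The 9 enzymes of serine synthesis and folate one-carbon metabolism were followed in single-cell RNA sequencing of mouse myeloid-derived suppressor cells (MDSC) grown with or without dabrafenib. They are Phgdh, Psat1, Psph, Shmt1, Shmt2, Mthfd2, Mthfd1l, Mthfd1 and Aldh1l2, 9 of the 32285 genes in the count matrices, taken by name because they carry carbon from glucose to serine and from serine to formate. The choice was made with earlier results of these data known. All 9 were counted in both libraries. Bone marrow of female C57BL/6 mice, 10 weeks old, was expanded for 4 days with IL-6 and GM-CSF, each at 50 ng/mL, cytokines that drive MDSC outgrowth from marrow. One culture received 1.5 µM dabrafenib (DAB), a BRAF inhibitor, and the other its solvent DMSO, and 1 library was made from each (10x Genomics 5′ chemistry). The sources used here do not say how many mice each culture came from.

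Serine is made from a glycolytic intermediate in a short chain of steps: Phgdh oxidises phosphoglycerate, Psat1 transfers an amino group, and Psph removes the phosphate. Shmt2 in the mitochondrion, or Shmt1 in the cytosol, then splits serine into glycine and a one-carbon unit carried on folate. In the mitochondrion that unit is oxidised by Mthfd2 and released as formate by Mthfd1l, while Aldh1l2 can burn it to CO2 with production of NADPH. Mthfd1 takes up formate in the cytosol, where the unit feeds purine, thymidylate and methionine synthesis. Several of these genes are known targets of ATF4, the transcription factor translated when the integrated stress response is active, and dividing cells use the pathway for nucleotides.

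The stretch of DNA before the start site is shown for the 5 members with the largest DAB to DMSO ratios, with Chac1, an ATF4 target, beside them as a promoter that holds the motif they lack. Each is the 250 bases upstream of the RefSeq start (build GRCm38.p6), read 5′ to 3′ on the strand of the gene. The windows are chr5:129787254-129787503 (minus strand) for Psph, chr3:98339970-98340219 (minus) for Phgdh, chr10:127522445-127522694 (minus) for Shmt2, chr19:15925060-15925309 (minus) for the first of the RefSeq starts of Psat1, chr6:83317605-83317854 (minus) for Mthfd2 and chr2:119350992-119351241 (plus) for Chac1. Capitals mark CCAAT or its reverse complement ATTGG and, in Chac1, also the core TGATGNAA of the C/EBP-ATF response element, which reads TTNCATCA on the other strand.
Psph: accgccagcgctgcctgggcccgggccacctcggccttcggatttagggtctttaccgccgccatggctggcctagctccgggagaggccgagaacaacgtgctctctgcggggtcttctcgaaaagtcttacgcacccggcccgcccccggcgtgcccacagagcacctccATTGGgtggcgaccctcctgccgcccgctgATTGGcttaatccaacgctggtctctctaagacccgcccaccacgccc
Phgdh: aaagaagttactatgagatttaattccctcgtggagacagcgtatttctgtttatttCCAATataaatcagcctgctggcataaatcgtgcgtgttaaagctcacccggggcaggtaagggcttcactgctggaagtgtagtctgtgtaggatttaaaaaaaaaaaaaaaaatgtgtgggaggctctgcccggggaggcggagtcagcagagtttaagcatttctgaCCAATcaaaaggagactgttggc
Shmt2: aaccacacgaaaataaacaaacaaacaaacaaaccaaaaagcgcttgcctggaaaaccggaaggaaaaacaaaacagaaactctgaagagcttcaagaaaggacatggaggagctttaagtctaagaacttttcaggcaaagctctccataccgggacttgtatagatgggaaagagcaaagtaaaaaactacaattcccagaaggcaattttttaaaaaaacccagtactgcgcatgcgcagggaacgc
Psat1: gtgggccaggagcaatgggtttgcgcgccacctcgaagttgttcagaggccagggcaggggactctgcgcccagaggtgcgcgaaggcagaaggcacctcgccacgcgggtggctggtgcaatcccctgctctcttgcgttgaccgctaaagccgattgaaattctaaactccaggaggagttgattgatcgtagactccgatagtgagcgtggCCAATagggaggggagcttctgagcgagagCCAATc
Mthfd2: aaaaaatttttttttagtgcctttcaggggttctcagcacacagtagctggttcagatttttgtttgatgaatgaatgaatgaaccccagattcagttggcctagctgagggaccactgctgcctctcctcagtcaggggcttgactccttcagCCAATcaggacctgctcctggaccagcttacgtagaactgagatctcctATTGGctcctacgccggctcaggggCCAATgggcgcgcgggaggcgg
Chac1: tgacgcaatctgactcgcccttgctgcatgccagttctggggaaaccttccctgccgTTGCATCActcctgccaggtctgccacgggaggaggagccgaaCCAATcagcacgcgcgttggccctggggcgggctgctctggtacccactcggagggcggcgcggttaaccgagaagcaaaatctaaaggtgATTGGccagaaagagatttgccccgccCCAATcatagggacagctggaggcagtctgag
The C/EBP-ATF core was found in 0 of the 8 members with a promoter in the RefSeq table, against 3.45% of 32851 mouse promoters of the same length and 8 of 21 genes of a list of ATF4 regulators and targets. The E-box CACGTG, a MYC site that is its own reverse complement, was also in 0 of the 8, against 6.02% of promoters. CCAAT, a letter string looked for after these sequences had been read, was in 6 of the 8 (Phgdh, Psat1, Psph, Shmt1, Mthfd2 and Mthfd1), against 33.8% of promoters. In the gene lists used below it ranged from 0 of 5 MYC-list genes to 17 of 19 proliferation genes, with 12 of 21 in the ATF4 list. None of these strings contains another. A match is a description of letters, and no match says only that these letters were not in this window. Aldh1l2 had no entry in the table.

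After filtering, 9032 cells of the DMSO library (92185507 UMIs, unique molecular identifiers that each stand for 1 captured transcript) and 10476 cells of the DAB library (140062170 UMIs) were kept, with medians of 7516.5 and 9454 UMIs per cell. Itgam, which encodes CD11b and marks myeloid cells, had a UMI in 81.7% and 84.1% of cells. Of 25 clusters, 13 could be named by markers, and 12 holding 44.3% of DMSO and 42.4% of DAB cells stayed unnamed. The libraries shared 152 cell barcodes. With 1 library per condition there is no replicate check, so no test was made and no p-value is given. Levels are in CPM, the UMIs of a gene summed over cells and scaled to a common total of UMIs, with exact Poisson 95% intervals, and the intervals cover counting error only. A gene was called higher or lower in DAB when the log2 ratio of its levels was at least 0.5 in size, its 95% interval left out 0 and at least 20 UMIs were counted in all, and such a call compares these libraries, not dabrafenib with DMSO in general.

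Over all cells, 8 of the 9 members were called higher in DAB and 0 lower, while 13.7% of the 16359 genes compared were called higher and 16.6% lower. Their summed level was 224 CPM in DMSO and 634 CPM in DAB, a log2 ratio of 1.50 (95% interval 1.48 to 1.52). The median log2 ratio of the members was 1.49 and that of all genes was -0.02. The rise was unequal along the route: the serine synthesis enzymes, Shmt2 and Mthfd2 were 2.82-fold to 4.88-fold higher in DAB. Aldh1l2 was 2.15-fold higher, and the cytosolic folate enzymes Shmt1 and Mthfd1, with Mthfd1l, 1.17-fold to 1.44-fold.

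Each of the serine synthesis enzymes was higher in DAB. Phgdh, the entry enzyme, was at 30.8 CPM in DMSO (29.7 to 31.96, 2840 UMIs) and 138 CPM in DAB (136 to 140, 19344 UMIs), a log2 ratio of 2.16 (2.11 to 2.22), and 242 of the 16359 genes had a larger one. Psat1, the aminotransferase, was at 32.5 CPM (31.3 to 33.7) in DMSO and 107 CPM (105 to 109) in DAB, a log2 ratio of 1.72 (1.66 to 1.78). Psph, the phosphatase, had the largest ratio of the 9, from 9.21 CPM (8.60 to 9.85) to 44.9 CPM (43.8 to 46.0), a log2 ratio of 2.29 (2.18 to 2.39). In each case the interval in DAB lay far above that in DMSO.

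Of the serine hydroxymethyltransferases the mitochondrial enzyme had the larger difference. Shmt2 was at 18.9 CPM (18.0 to 19.8) in DMSO and 72.8 CPM (71.4 to 74.2) in DAB, a log2 ratio of 1.95 (1.87 to 2.02). Shmt1, its cytosolic partner, was at 3.32 CPM (2.96 to 3.71, 306 UMIs) and 4.78 CPM (4.42 to 5.15, 669 UMIs), a log2 ratio of 0.53 (0.33 to 0.72), and 2469 genes had a larger one. The intervals of these 2 ratios did not overlap.

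The mitochondrial folate enzymes did not move together. Mthfd2, the dehydrogenase and cyclohydrolase, was at 64.1 CPM (62.5 to 65.8) in DMSO and 181 CPM (178 to 183) in DAB, a log2 ratio of 1.49 (1.45 to 1.53). Aldh1l2, the NADPH-producing dehydrogenase, was at 5.63 CPM (5.16 to 6.14) and 12.1 CPM (11.5 to 12.7), a log2 ratio of 1.10 (0.96 to 1.25). Mthfd1l, the formate-releasing synthetase, was at 48.0 CPM (46.6 to 49.5) and 56.1 CPM (54.9 to 57.4), a log2 ratio of 0.22 (0.17 to 0.28). It was the member that was not called: its interval left out 0 but the ratio was under 0.5, and 4996 genes had a larger one. In the cytosol, Mthfd1 was at 12.0 CPM (11.3 to 12.7) and 17.2 CPM (16.5 to 17.9), a log2 ratio of 0.52 (0.41 to 0.62). The calls of Shmt1 and Mthfd1 rested on the threshold. Without doublet removal both ratios were 0.48, and with each cluster given the same weight in both libraries they were 0.40 and 0.49.

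**Figure D1:**
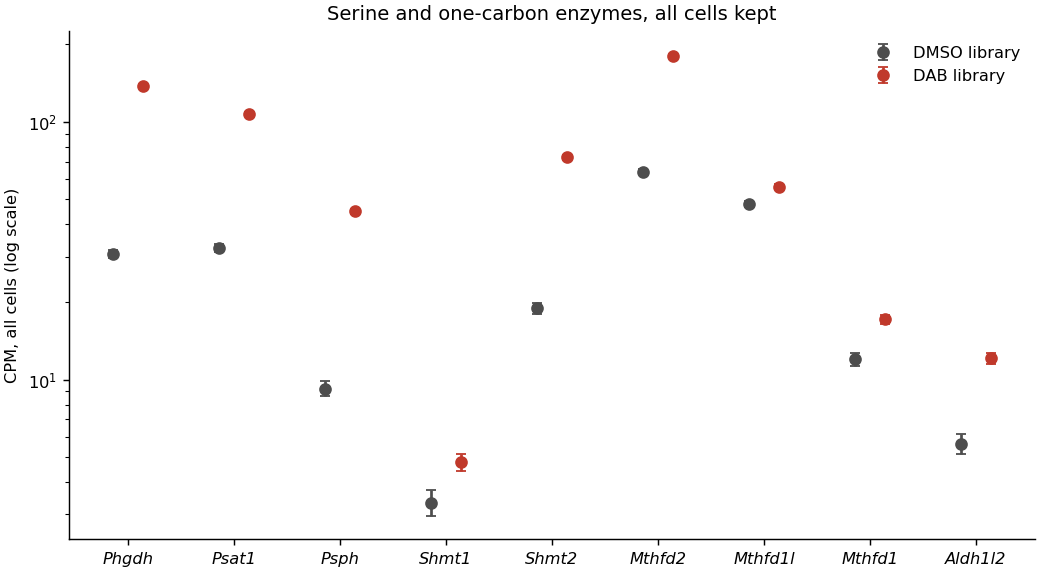
Level of each of the 9 enzymes (CPM, log axis) in the cells of the DMSO and DAB libraries, with exact 95% Poisson intervals. DAB lies above DMSO for each, by a wide margin for Phgdh, Psat1, Psph, Shmt2 and Mthfd2 (log2 ratios 1.49 to 2.29) and narrowly for Mthfd1l (0.22).

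All 9 are protein-coding genes (GENCODE M21 annotation of GRCm38). Phgdh spans chr3:98313170-98339990 on the minus strand and has a named pseudogene, Phgdh-ps1, so reads that could be split between the copies are uncertain. Psat1 spans chr19:15904678-15947337 (minus) and Mthfd2 chr6:83305691-83325908 (minus), with no overlapping gene in the matrices. Mthfd1l spans chr10:3973118-4167081 (plus), the longest of the set. Psph (chr5:129765558-129787449, minus) overlaps Cct6a, Shmt1 (chr11:60788104-60811718, minus) overlaps Smcr8, Shmt2 (chr10:127517123-127522444, minus) overlaps Ndufa4l2 and Aldh1l2 (chr10:83487450-83534140, minus) overlaps D10Wsu102e, each on the opposite strand. Mthfd1 (chr12:76255298-76319803, plus) overlaps the opposite-strand loci Gm47525 and Gm34868. The paper names the chemistry setting used for counting but does not spell out the use of strand. Whether reads of the opposite-strand partners entered these counts was not tested.

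The level of most members was higher in deeper cells, and DAB cells were deeper, so the libraries were also compared within 4 strata of UMIs per cell, a comparison added after the data had been seen. Phgdh, Psat1, Psph, Shmt2 and Mthfd2 were higher in DAB in each stratum, with log2 ratios of 1.11 to 1.96 for Phgdh, 1.05 to 1.99 for Psat1, 1.05 to 2.36 for Psph, 1.30 to 1.76 for Shmt2 and 1.23 to 2.04 for Mthfd2. For Phgdh and Shmt2 each of these ratios lay below that over all cells. Aldh1l2 ranged from 0.43 to 1.58. Mthfd1l (-0.02 to 0.44), Mthfd1 (-0.04 to 1.17) and Shmt1 (-0.93 to 1.23) did not keep 1 direction. The share of all genes called higher within a stratum is not given here.

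Among cell types, classes were named from marker genes, and the name says only that those markers were raised. Of the named classes, 5 myeloid ones had at least 200 cells in each library: immature monocyte-like (1069 DMSO and 1204 DAB cells, median 17139 and 20490 UMIs), mature monocyte-like (460 and 534, with 19577 and 29236.5 UMIs), intermediate granulocyte-like (749 and 285, with 6894 and 11203 UMIs), chemokine-high granulocyte-like (539 and 1828, with 4874 and 4819 UMIs) and mature PMN-like (1547 and 1526, with 3446 and 3651 UMIs). The immature monocyte-like cells were led by Mmp12, Ccdc80 and Cd200r3. Over these 5 classes, 32 of 45 pairs of a member and a class were called higher in DAB and 0 lower. The share of all genes called higher ran from 9.93% in chemokine-high to 27.0% in intermediate granulocyte-like cells. Called lower were from 941 of 10965 genes in mature PMN-like to 2657 of 12847 in immature monocyte-like cells. The pairs reuse the same genes and libraries.

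In monocyte-like cells the serine synthesis enzymes were already present in DMSO and highest of the 5 classes in DAB. Immature monocyte-like cells had 7 of 9 members called higher in DAB, against 12.0% of all genes compared in them. Phgdh was at 33.5 CPM in DMSO and 166 CPM in DAB there (log2 ratio 2.31), Psat1 at 55.7 and 160 CPM (1.52), and Mthfd2 at 87.6 and 213 CPM (1.29). Mthfd1l was level at 51.2 and 49.7 CPM (-0.04, interval -0.16 to 0.08), and Mthfd1 was at 16.2 and 20.6 CPM (0.35). Shmt1, at 2.90 and 4.24 CPM (0.55), was among the called members, but its ratio was -0.01 with finer clusters and -0.33 with no alignment of the libraries. Mature monocyte-like cells, which carried class II genes and Ccl17, also had 7 of 9 called higher, against 16.7% of genes. Their Phgdh rose from 16.1 to 133 CPM (3.05), Shmt2 from 22.2 to 112 CPM (2.34) and Aldh1l2 from 2.19 to 13.5 CPM (2.62), and they had the highest Mthfd2 of the 5 classes in DAB (95.5 and 241 CPM, 1.33). With coarser clusters the ratio of Phgdh was 1.89 and that of Aldh1l2 1.37, and with residuals over both libraries together they were 1.66 and 1.20. Basophil or mast cell markers summed to 76.1 CPM in DMSO and 292 CPM in DAB in the immature monocyte-like cells, and macrophage markers to 381 and 41.6 CPM in the mature monocyte-like cells. With residuals over both libraries together, the cluster named immature monocyte-like held 1000 DMSO and 171 DAB cells. A separate unnamed cluster led by Il2ra, Cpa3 and Cd200r3 held 121 DMSO and 529 DAB cells. In the mature monocyte-like cells immature monocyte markers summed to 5111 and 1685 CPM, and their own markers to 23435 and 21788 CPM. Of 22 listed proliferation genes 11 were called higher in them, against 16.7% of genes. The ratios of both monocyte-like classes therefore cannot be read as changes within 1 cell type. The part of such differences in make-up was not tested.

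In intermediate granulocyte-like and mature PMN-like cells the DMSO levels of Phgdh, Psat1, Shmt2 and Mthfd2 were below those of monocyte-like cells. Intermediate granulocyte-like cells, led by Camp, Ltf and Ngp of the secondary granules, had 7 of the 8 members with 20 UMIs called higher, against 27.0% of genes. Phgdh was at 8.97 CPM in DMSO and 93.0 CPM in DAB there (3.37), Psat1 at 4.93 and 51.9 CPM (3.40) and Shmt2 at 4.58 and 43.8 CPM (3.26). With no doublet removal these ratios were 2.90, 2.55 and 2.80. Mthfd1l was called higher, at 28.9 and 41.1 CPM (0.51), but its ratio was 0.17 to 0.44 with the other clusterings and with no doublet removal, under the threshold in each. Mature PMN-like cells had 6 of 9 called higher, against 19.1% of genes, with Phgdh at 3.42 and 40.2 CPM (3.56) and Mthfd2 at 16.4 and 77.1 CPM (2.24). The Phgdh ratio depended on where the class was drawn: it was 1.69 with coarser clusters, 2.64 with finer ones, 1.60 with no alignment of the libraries and 2.02 with residuals over both libraries together, where that of Mthfd2 stayed between 2.00 and 2.24. Mthfd1, called at 4.55 and 8.06 CPM (0.82), was at 0.49 with coarser clusters, 0.43 with no alignment and 0.42 with the joint residuals. Mthfd1l was at 57.4 CPM in DMSO and 47.2 CPM in DAB in them (-0.28). Chemokine-high granulocyte-like cells had 5 of 9 called higher, against 9.93% of genes, with Psat1 at 22.05 and 39.9 CPM (0.86), Psph at 8.82 and 13.6 CPM (0.63) and Shmt2 at 8.27 and 18.1 CPM (1.13). They joined cluster E, led by Cxcl3 and Cxcl2, and cluster H, led by Atp6v0d2 and Ccl3. In cluster H Psat1 was at 6.98 and 5.99 CPM (-0.22) and Psph at 8.14 and 9.66 CPM (0.25), neither called. Shmt2 was called there, at 3.49 and 13.3 CPM (1.93). The Psph ratio over the whole chemokine-high class was 0.41 with coarser clusters, under the threshold.

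Other values moved with these granulocyte classes. Of the mature PMN-like cells, 802 of 1547 in DMSO were in cluster D, and 867 of 1526 in DAB were in cluster B. Phgdh was at 4.41 CPM in DMSO and 58.1 CPM in DAB in cluster D (3.72), and at 1.32 CPM (3 UMIs) and 5.46 CPM (15 UMIs) in cluster B (2.04, interval 0.22 to 4.47). Immature monocyte markers in the mature PMN-like cells summed to 588 CPM in DMSO and 2014 CPM in DAB, 6.69% and 30.8% of their sum in immature monocyte-like cells, while Phgdh was 10.2% and 24.2% of its level there. In intermediate granulocyte-like cells the same markers summed to 78.3 and 644 CPM, 0.892% and 9.83% of the monocyte-like sum, while Phgdh was 26.8% and 56.0%. Their own markers summed to 77360 and 49959 CPM there, and 18 of 22 proliferation genes were called higher, against 27.0% of all genes. In chemokine-high cells 21 of 22 proliferation genes were called lower, against 12.7% of all genes. Immature monocyte markers in the chemokine-high cells summed to 4361 and 4469 CPM, 49.7% and 68.2% of the monocyte-like sum. Phgdh was 57.6% and 29.3% of its monocyte-like level in them. This class thus carried many monocyte marker counts beside its own, and its granulocyte name is uncertain. The part of these in the members' ratios was not tested.

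**Figure D2:**
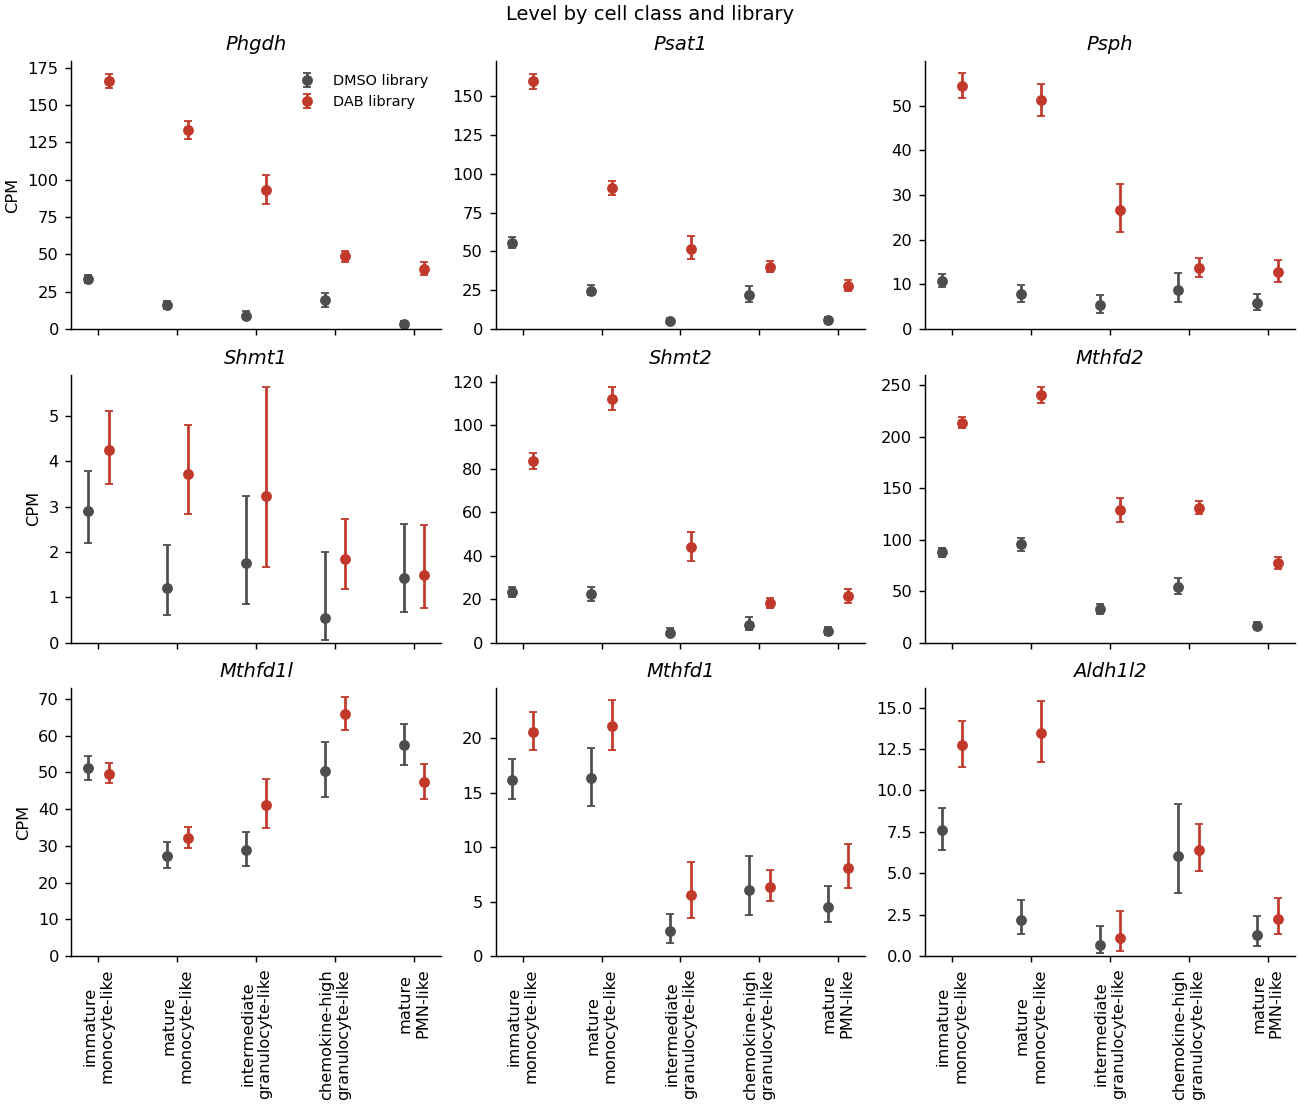
Level of each enzyme (CPM, linear axis from 0, 1 panel per gene) in 5 myeloid classes of the DMSO and DAB libraries, with exact 95% Poisson intervals. Phgdh rises in each class, to 166 CPM in immature monocyte-like and 40.2 CPM in mature PMN-like cells, while Mthfd1l is at 57.4 and 47.2 CPM in mature PMN-like cells.

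The order of the classes changed between the libraries. For Phgdh the order in DMSO was immature monocyte-like, chemokine-high, mature monocyte-like, intermediate granulocyte-like and mature PMN-like, and the intervals of chemokine-high (15.04 to 24.4 CPM) and mature monocyte-like cells (13.6 to 18.9 CPM) overlapped. In DAB chemokine-high cells came after mature monocyte-like and intermediate granulocyte-like cells, and no neighbours overlapped. Psat1 took that same order in DAB. For Psph in DMSO each class overlapped its neighbour, from 10.8 down to 5.28 CPM, whereas in DAB both monocyte-like classes (54.4 and 51.2 CPM) stood above intermediate granulocyte-like (26.6 CPM) and the other granulocyte-like cells (13.6 and 12.8 CPM).

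Among the named myeloid classes with at least 200 cells in each library, Shmt2 and Mthfd2 were highest in monocyte-like cells. Outside these classes, among clusters with at least 100 cells in each library, Shmt2 reached 54.3 CPM in B cell-like cells of DMSO. It reached 165 CPM in granulocyte progenitor-like cells of DAB. Mthfd2 reached 126 CPM in activated dendritic cell-like cells of DMSO. In DAB, of the clusters with at least 100 cells in each library, mature monocyte-like cells had the highest Mthfd2. In DMSO mature monocyte-like cells overlapped the immature ones for both genes, and in DAB they stood above them, at 112 against 83.5 CPM for Shmt2 and 241 against 213 CPM for Mthfd2. Shmt1 was so thinly counted that each class overlapped its neighbour in both libraries, between 0.551 and 2.90 CPM in DMSO and between 1.49 and 4.24 CPM in DAB. Mthfd1 was at 16.2 and 16.3 CPM in the monocyte-like classes of DMSO and between 2.29 and 6.06 CPM in the granulocyte-like ones. Mthfd1l ran against this order. In DMSO mature PMN-like (57.4 CPM), immature monocyte-like (51.2 CPM) and chemokine-high cells (50.4 CPM) overlapped in turn and stood above intermediate granulocyte-like (28.9 CPM) and mature monocyte-like cells (27.4 CPM). In DAB the chemokine-high cells led at 66.0 CPM and mature monocyte-like cells were again last at 32.2 CPM, their interval overlapping that of intermediate granulocyte-like cells at 41.1 CPM.

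Some smaller classes also carried much of the serine synthesis enzymes. Cells named granulocyte progenitor-like (172 in DMSO and 132 in DAB), with Elane and Mpo of the primary granules as leading genes, had 9 of 9 members called higher, against 17.6% of genes. Phgdh was at 126 CPM in DMSO and 363 CPM in DAB in them (1.53), Psat1 at 41.4 and 187 CPM (2.18), and Psph at 24.7 and 150 CPM (2.60). Shmt1, at 13.9 and 23.7 CPM (0.76), and Mthfd1l, at 53.1 and 81.9 CPM (0.63), were among the called members. The median depth of this class was 11761.5 UMIs in DMSO and 22339.5 in DAB. Its extent depended on the clustering: with finer clusters the name went to 53 DMSO and 59 DAB cells. With no alignment it went to 117 and 32 cells led by Mt2 and Mt1. The ratios of this class are not given for those clusterings. B cell-like cells (142 and 190 cells) were high in DMSO too, with Phgdh at 91.0 and 123 CPM (0.43, interval -0.02 to 0.89) and Mthfd2 at 80.7 and 76.1 CPM (-0.09, interval -0.60 to 0.44). Activated dendritic cell-like cells (168 and 112 cells) had little of the serine synthesis enzymes, with Phgdh at 3.18 and 14.2 CPM and Psat1 at 7.41 and 7.09 CPM (-0.06), but had the highest Mthfd2 of any cluster in DMSO, at 126 CPM, and 205 CPM in DAB (0.71).

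Across the 21 clusters with at least 100 cells in each library, the log2 ratio was above 0 in 21 for Phgdh, Psph and Shmt2, 20 for Mthfd2 and Mthfd1, 19 for Psat1, and 18 for Mthfd1l. It was above 0 in 14 for Shmt1 and 18 for Aldh1l2 of the 20 clusters with UMIs in both libraries. Shmt1 was called lower in DAB in the unnamed cluster L, at 13.7 and 5.44 CPM (-1.33, interval -1.93 to -0.71). No other member was called lower in a cluster. The median over clusters was 2.23 for Phgdh, 2.08 for Psph, 1.78 for Shmt2, 1.71 for Psat1, 1.48 for Mthfd2, 0.84 for Aldh1l2, 0.56 for Mthfd1, 0.50 for Shmt1 and 0.25 for Mthfd1l. Cluster M, an unnamed cluster led by Retnlg and Ly6g, had the largest ratios of Phgdh (2.61 and 44.8 CPM, 4.10, from 4 UMIs in DMSO) and Mthfd2 (7.83 and 110 CPM, 3.82).

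**Figure D3:**
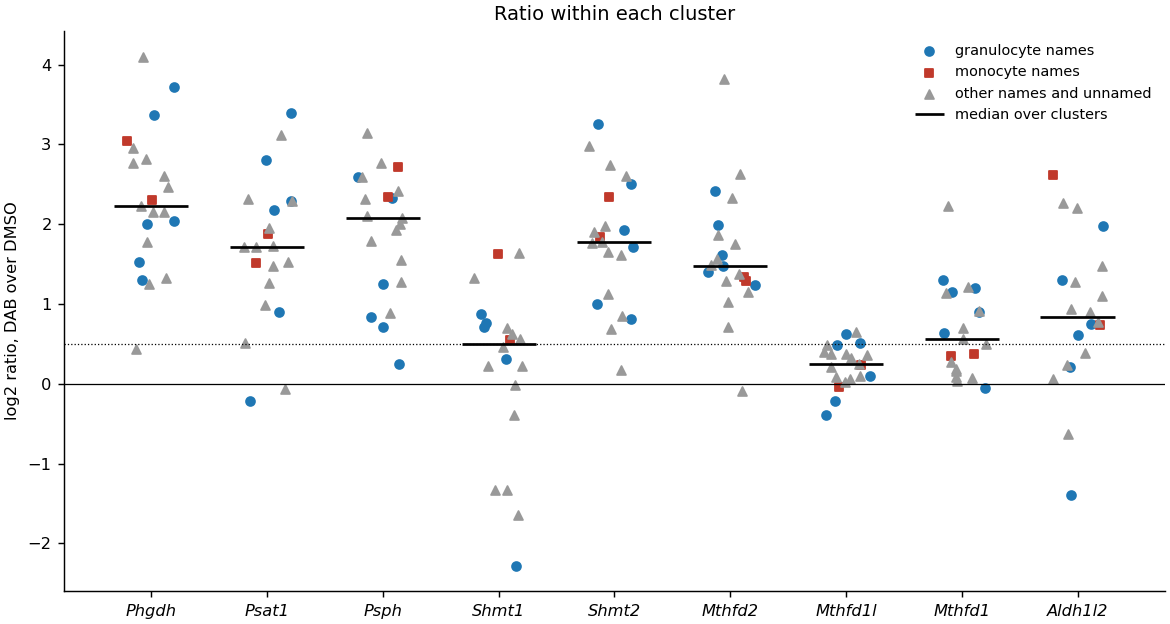
log2 ratio of DAB to DMSO levels of each enzyme in each of 21 clusters, 1 point per cluster coloured by the kind of class name, with the median as a bar and a dotted line at 0.5. Medians fall from 2.23 for Phgdh to 0.25 for Mthfd1l, and Shmt1 spans -2.28 (cluster B, from 4 UMIs in DMSO and 1 in DAB) to 1.64.

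Cluster P set Mthfd1l apart from the others. This unnamed cluster (270 DMSO and 302 DAB cells, median 2539 and 3667.5 UMIs) was led by Gm26917, Gria3 and Lrmda and had Mthfd1l at 214 CPM in DMSO and 282 CPM in DAB, and the cluster with the next highest level in DMSO, cluster B, had 72.8 CPM. The nuclear RNAs Malat1, Neat1 and Gm26917 were chosen after the leading genes of cluster P, which include Gm26917 and Neat1, had been seen. A high sum in cluster P thus follows from the choice, and the correlations below include that cluster. These RNAs summed to 24895 and 25501 CPM in cluster P and to between 1329 and 12030 CPM elsewhere. Over the 21 clusters, which share a library and differ in depth, the level of Mthfd1l went with that sum (Pearson r 0.79 in DMSO and 0.74 in DAB), and r lay between -0.52 and 0.26 for the other members. It went against the median depth of the cluster, with r of -0.60 and -0.37, where r was positive for each of the other members (0.67 and 0.87 for Mthfd2). These are descriptions, and the part of unspliced or nuclear RNA in the Mthfd1l counts was not tested.

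By cell, more cells had a UMI of most members in DAB. At such low counts the share follows the mean level, so it cannot tell more expressing cells from more transcript per cell. With each cell thinned to 1500 UMIs (8596 DMSO and 10185 DAB cells, with 436 and 291 shallower ones left out), the share of cells with Phgdh was 2.48% in DMSO (exact binomial 95% interval 2.16 to 2.83) and 10.2% in DAB (9.58 to 10.8). Mthfd2 was seen in 6.05% (5.55 to 6.57) and 16.3% (15.6 to 17.0), Psat1 in 2.75% and 8.51%, Psph in 1.17% and 3.75%, and Shmt2 in 1.76% and 5.52%. The intervals overlapped for Shmt1 (0.349% and 0.481%) and Mthfd1l (7.67% and 8.67%). For 7 of the 9 members the DAB interval lay above that of DMSO, which was so for 23.2% of the genes seen in at least 20 thinned cells. Unthinned, Phgdh was seen in 13.7% and 37.8% of cells and Mthfd2 in 27.9% and 55.1%. No class was known to lack these enzymes, so the lowest class of at least 100 thinned cells is given beside the shares. In DMSO mature PMN-like cells (median 3446 UMIs) were lowest for Phgdh at 0.282%, for Psat1 at 0.352%, for Shmt2 at 0.493% and for Mthfd2 at 1.76%. In DAB the lowest were activated dendritic cell-like cells for Phgdh at 1.82% (median 14545.5 UMIs) and mature PMN-like cells for Mthfd2 at 7.71% (median 3651 UMIs), above the 6.05% over all DMSO cells.

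Transcripts of several members were also seen in the same cell more often in DAB. Higher shares of single members raise such counts by themselves, and no expected value was computed. At 1500 UMIs per cell, at least 2 of the serine synthesis enzymes were seen in 0.302% (0.198 to 0.443) of cells in DMSO and in 3.13% (2.80 to 3.49) in DAB, and at least 1 in 6.10% and 19.1%. At least 3 of the 9 members were seen in 0.442% (0.313 to 0.606) and 3.26% (2.92 to 3.62).

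Since dividing cells use one-carbon units for nucleotides, cells with at least 3 UMIs of a list of 22 proliferation genes after thinning (831 of 8596 in DMSO, 9.67%, and 764 of 10185 in DAB, 7.50%) were set apart as cycling. In both libraries 7 of the 9 members were called higher in cycling than in other cells, against 18.6% of genes in DMSO and 19.3% in DAB. The split pooled all cell types and was not made within a class, so cell type and cycling cannot be told apart here. Phgdh was at 19.97 CPM in other and 87.3 CPM in cycling cells of DMSO, and at 107 and 306 CPM in DAB. Shmt2 was at 12.5 and 52.2 CPM in DMSO and at 51.9 and 185 CPM in DAB. Shmt1, thinly counted elsewhere, was at 1.93 and 10.6 CPM and at 2.87 and 14.8 CPM. The exceptions were Mthfd1l (47.4 and 50.5 CPM in DMSO, 53.7 and 68.1 CPM in DAB) and Aldh1l2 (5.76 and 4.95 CPM, 12.0 and 12.9 CPM).

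The DAB to DMSO difference was present in both fractions. Among cycling cells 7 of 9 members were called higher in DAB, against 14.7% of genes, and among other cells 7 of 9, against 13.6%. For 6 members (Phgdh, Psat1, Psph, Shmt2, Mthfd2 and Aldh1l2) this held in both. The log2 ratio of Phgdh was 1.81 in cycling and 2.42 in other cells, that of Mthfd2 1.15 and 1.64, that of Shmt2 1.82 and 2.05, and that of Psph 2.62 and 2.14. Other cells of DAB had more Phgdh (107 CPM) than cycling cells of DMSO (87.3 CPM). Cycling cells were a smaller share in DAB. Over all cells 6 of the 22 proliferation genes were called lower, against 16.6% of all genes, and 2 higher, against 13.7%. The higher ones were the replication genes Mcm2 (11.3 and 20.9 CPM, 0.88) and Mcm5 (19.8 and 30.02 CPM, 0.60).

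**Figure D4:**
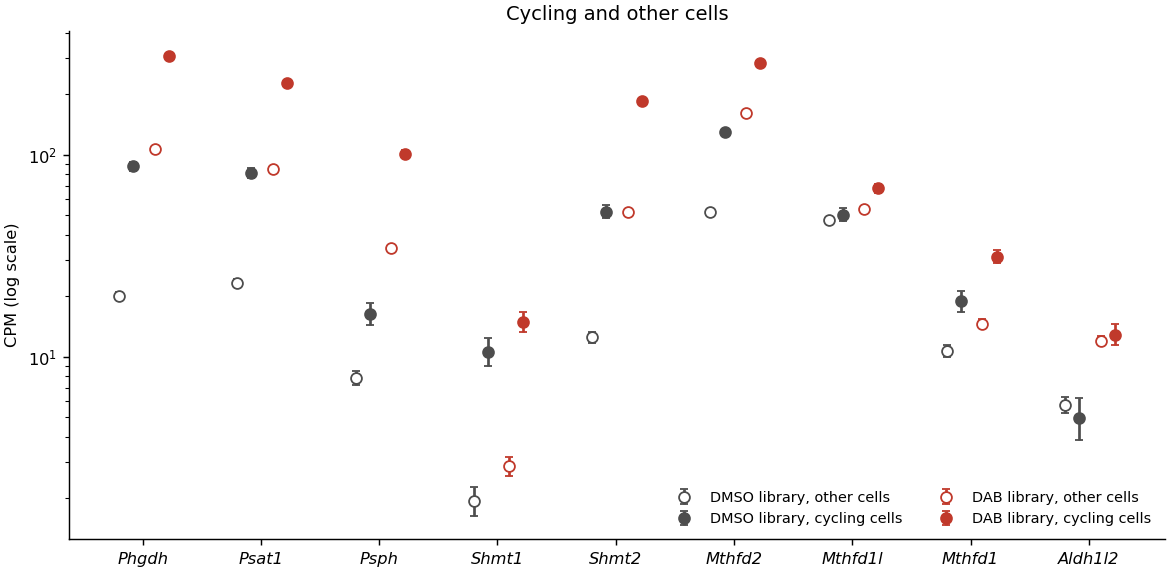
Level of each enzyme (CPM, log axis) in cycling (filled) and other cells (open) of both libraries, with exact 95% Poisson intervals. Phgdh steps from 19.97 CPM in other cells of DMSO to 306 CPM in cycling cells of DAB, and Mthfd1l stays between 47.4 and 68.1 CPM.

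The other genes of the pathway lists had a lower median ratio than the members, but members and lists were chosen with earlier results of these data known. Of 49 other genes counted in 4 lists around the pathway, 19 were called higher and 3 lower, with a median log2 ratio of 0.28. Of all genes 13.7% were called higher and 16.6% lower. In the list of other mitochondrial folate and glycine cleavage genes 3 of 10 were higher and 0 lower, with a median of 0.17. Beside Mthfd2l these were Gcsh, of glycine cleavage (19.2 and 29.8 CPM, 0.64), and Sfxn2 (2.45 and 4.26 CPM, 0.80). Mthfd2l, a paralogue of Mthfd2, was at 5.97 CPM in DMSO and 11.6 CPM in DAB (0.96). The mitochondrial folate carrier Slc25a32 was at 5.07 and 6.63 CPM (0.39) and the mitochondrial serine carrier Sfxn1 at 43.4 and 51.5 CPM (0.25), and neither was called. In the cytosolic folate and nucleotide list 8 of 14 were higher and 1 lower, with a median of 0.62. Of the members, Shmt1 (0.53), Mthfd1 (0.52) and Mthfd1l (0.22) lay below that median. Tyms, thymidylate synthase, was at 17.2 and 27.8 CPM (0.69). The 1 lower gene was Aldh1l1, the cytosolic counterpart of Aldh1l2, which went from 5.47 to 1.19 CPM (-2.20).

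Of the methionine cycle genes 2 of 10 were higher and 1 lower (median 0.07), near the 13.7% and 16.6% over all genes. Mtap, of methionine salvage, was at 12.5 and 26.8 CPM (1.10), Mat2a, which makes S-adenosylmethionine, was at 28.9 and 56.5 CPM (0.97), and the lower gene, Ahcy was at 7.63 and 4.88 CPM (-0.65). Of 15 genes of serine transport and use 6 were higher and 1 lower, the latter Serinc5 at 4.36 and 2.28 CPM (-0.94). Of the higher genes 4 were amino acid transporters: Slc1a5 was at 30.7 and 88.4 CPM (1.53) and called in each of the 5 classes, Slc38a2 at 43.1 and 97.0 CPM (1.17), Slc38a1 at 41.7 and 63.9 CPM (0.62) and Slc1a4, which carries serine, at 1.04 and 7.73 CPM (2.89). The others were Sars, which charges tRNA with serine, at 105 and 162 CPM (0.63), and the thinly counted Sdsl at 0.174 and 0.336 CPM (0.95). Glycolysis genes had 0 of 14 higher and 1 lower, Gpi1 at 2117 and 1386 CPM (-0.61), with a median of -0.02.

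Most listed genes of the integrated stress response were also higher in DAB. In the list of ATF4 regulators and targets, which leaves out the members, 18 of 24 were called higher and 2 lower, with a median of 1.33. The shares over all genes were 13.7% higher and 16.6% lower. Over the clusters compared above, the log2 ratio of a member correlated with the median ratio of this list. Pearson r lay between 0.12 (Mthfd1) and 0.69 (Shmt2), with 0.45 for Phgdh, and a link was not tested. Cth, of cysteine synthesis, was at 0.249 CPM in DMSO (23 UMIs) and 32.9 CPM in DAB (7.04), Stc2 at 5.72 and 56.1 CPM (3.30), Chac1 at 4.00 and 27.8 CPM (2.80) and Atf5 at 22.8 and 153 CPM (2.75). Atf4 itself was at 148 and 262 CPM (0.83) and was called in 4 of the 5 classes, with 0.40 in mature monocyte-like cells. In that class 15 of the 24 listed genes were called higher, against 16.7% of its genes, with a median of 1.43. Another 4 listed genes were called lower there, beside 2318 of the 11884 genes compared. Over all cells the lower genes were Atf3 (56.3 and 23.9 CPM, -1.24) and Ddit4 (193 and 129 CPM, -0.58). Of 7 MYC-list genes 3 were higher and 0 lower, with a median of 0.47: Myc at 45.8 and 79.4 CPM (0.80), Ncl at 183 and 284 CPM (0.64) and Odc1 at 85.3 and 128 CPM (0.59). In these lists Gcsh, Sfxn2, Aldh1l1, Mat2a, Ahcy, Slc38a1, Sars, Sdsl, Serinc5, Gpi1, Atf3, Ddit4, Ncl and Odc1, and among proliferation genes Mcm2 and Mcm5, were named after their values had been seen.

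**Figure D5:**
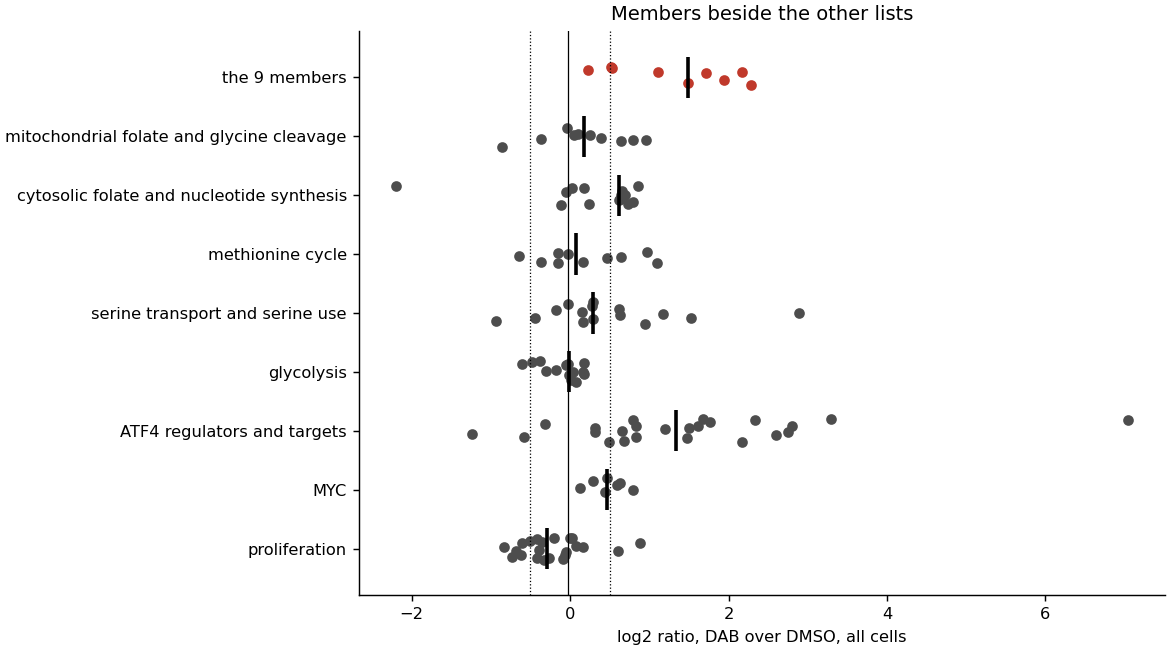
log2 ratio of DAB to DMSO over all cells for each gene of the member set and of the lists around it, 1 point per gene, with the median of each list as a bar, the median of all genes as a line and the 0.5 threshold dotted. Medians are 1.49 for the members and 1.33 for ATF4 regulators and targets, against -0.02 for glycolysis and -0.29 for proliferation genes.

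Over the 42 points made by 21 clusters in both libraries, which share library and depth, Phgdh, Psat1, Psph and Shmt2 varied most closely together. Phgdh correlated with Shmt2 at Pearson r 0.94, with Psat1 at 0.91 and with Psph at 0.89, and Mthfd1l with the other members at between -0.07 (Mthfd2) and 0.50 (Aldh1l2). Among 5892 genes with enough counts, those most like Phgdh were Shmt2 (0.94), Tars (0.93), Pck2 (0.92), Psat1 (0.91) and Gars (0.90). For Shmt2 they were Phgdh, Pck2 (0.93), Psph (0.92), Yars (0.92) and Gars (0.91), and for Psat1, beside Phgdh, Srm (0.91), Tars (0.90), Gars (0.88) and Iars (0.87). Mthfd2 was closest to Vcp (0.84), Bin1 (0.83) and Aldh18a1 (0.82), and Mthfd1 to Hspd1 (0.93), Pabpc4 (0.91) and Bzw2 (0.90), so neither had another member among its nearest. Within each library the level of Phgdh also went with the summed proliferation genes over the 21 clusters (r 0.75 in DMSO and 0.74 in DAB), as did that of Shmt2 (0.71 and 0.80), more than that of Mthfd1l (0.22 and 0.23).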

How the data were processed

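The deposited files hold counts: UMIs per gene and cell barcode, which the authors made with Cell Ranger 7.0.0 on the mouse build mm10, and the submitters' processing notes also name Seurat 4.3.0 and R 4.1.2. This Cell Ranger version counts intronic reads by default, which can add counts to long genes, and the sources used here do not say whether that was kept. The matrices hold 9855 DMSO and 11631 DAB barcodes with at least 500 and 502 UMIs (106792967 and 165506902 UMIs in all). Groups were taken from the sample labels.

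Barcodes over 10% mitochondrial UMIs (55 and 89) and likely doublets by simulated neighbours (768 and 1066, at a rate of 0.8% per 1000 barcodes) were removed, and 0 barcodes were beyond 4 median absolute deviations. Pearson residuals of 3000 variable genes were taken within each library (a choice made after residuals over both libraries split the clusters by library), aligned by mutual nearest neighbours over 40 components and clustered by Leiden at resolution 0.9 (Python 3.11.15, scikit-learn 1.9.0, leidenalg 0.10.2). A cluster took the name of the class with the highest mean marker fold when at least 3 and most of its detected markers had a log2 fold of at least 1 over the other clusters, its 10 leading genes held more markers of that class than of any other and, for granulocyte names, S100a8 or Csf3r was raised. The naming rule was set after clusters were seen. UMIs were summed per library and class, with exact Poisson, conditional binomial and binomial 95% intervals (scipy 1.17.1). No gene model or test was fitted, since there is 1 library per condition. In simulated counts with 200 of 16359 genes changed, 95.3% of intervals held the true ratio, 97.5% of changed genes were called and 1.01% of unchanged genes were called. This checks the counting intervals only and gives no rate of false calls between real cultures.

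Beside the members, listed genes were named if they had at least 20 CPM in a library and at least a log2 ratio of 1 in either direction (up to 4 a list, the largest first), or act beside a member in the pathway, and 2 of the latter are not reported here. The members and lists were chosen with earlier results of these data known. Gene positions matched 32235 of 32285 IDs in GENCODE M21, and promoters are from RefSeq (GRCm38.p6). Clustering resolution, alignment, doublet removal, cell filter, scaling, weighting, UMI minimum, thinning depth and cycling cutoff were varied. Pooled residuals, depth strata, shared barcodes, the CCAAT search, nuclear RNAs and marker sums were added after the data had been seen. Protein sequences were not used here.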

Additional observations from a re-analysis of the deposited data

How the results depend on the processing

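With 1 library per condition, culture, library preparation and sequencing cannot be told apart from the treatment, and intervals cover counting error only. Over the alternatives tried, 8 members were called higher over all cells with median-of-ratios scaling, a minimum of 200 UMIs or shared barcodes left out, 7 with no cell filter or with the mean over cells, and 6 with no doublet removal, with each cluster weighted alike in both libraries or within each depth stratum. In each of these the log2 ratios of Phgdh, Psat1, Psph, Shmt2 and Mthfd2 stayed above 1, the lowest being 1.05. With the minimum of 200 UMIs 13.3% of all genes were called higher. That share is not given here for the other alternatives, so their counts of members cannot be set against it. The number called lower was 1 in the third depth stratum of 4, where the log2 ratio of Shmt1 was -0.93, and Mthfd1 was at -0.045 in the second. With median-of-ratios scaling the log2 factor of DAB over DMSO was -0.05 relative to library totals, so each ratio was that much higher, and the median of the other pathway genes was 0.32 in place of 0.28.

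Of 45 pairs of a member and a class, 31 were higher and 1 lower at resolution 0.5, 31 higher at resolution 1.5, and 29 with no alignment or no doublet removal. As reported above 32 were higher, against 9.93% to 27.0% of all genes over the classes. Such shares are not given here for the other settings. With residuals over both libraries together, 3 classes could be compared, and 19 of 27 pairs were higher. Shmt1 in immature monocyte-like cells was at -0.012 at resolution 1.5 and -0.33 with no alignment. The other pathway genes called higher numbered 17 with a minimum of 200 UMIs and 20 with median-of-ratios scaling. Of the values recomputed, 256 stayed within their interval or 1.5 times their count, 89 moved by more and 4 reversed. No paired analysis was possible because the labels give no replicate numbers and there is 1 library per condition. Depth limits Shmt1, Aldh1l2 and Psph most, with 306, 519 and 849 UMIs in DMSO.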
